A study of Xenopus laevis with 4 samples.

Results

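DNA methylation inside long genes was examined in pre-ZGA Xenopus laevis embryos, that is, before zygotic genome activation. The regions described are recurrent MBD-seq peaks that lie deep inside protein-coding genes. The peaks were chosen by their calls in both lists and by their position. A peak was included if it was called in replicate 1, shared 1 bp or more with a replicate 2 peak, and had its midpoint inside a protein-coding gene and over 10 kb from both ends of every protein-coding gene. There were 21884 such peaks, out of 131295 replicate 1 peaks and 81187 recurrent peaks on the 18 chromosomes. They are called recurrent deep peaks here, and the gene sequence in which their midpoints can lie is called deep interior.

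MBD-seq captures fragments of genomic DNA with a methyl-CpG-binding domain protein (H6-GST-MBD) and sequences them. Whole wild-type embryos of the 256-cell stage, 4.5 h after fertilization, were pooled at 250 embryos per replicate, in what the study describes as independent biological replicates. The series has 4 samples, namely 2 MBD capture libraries and 2 Input libraries of the same stage, and no group was treated. Only the MBD capture samples have peak lists in use here, and the Input libraries entered through the authors' peak calling alone. Replicate 1 had 17645240 tags and 131303 peaks, and replicate 2 had 23909019 tags and 222771 peaks.

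In vertebrates most CpG dinucleotides are methylated, gene bodies included, while CpG-rich promoters tend to be free of the mark. Long genes consist mainly of introns, so sequence far from both ends of a gene is intronic for the most part. MBD capture enriches methylated sequence with many CpGs and leaves methylated sequence with few CpGs below the threshold of peak calling. A peak therefore marks dense methylated CpG, and sequence without a peak is not thereby unmethylated.

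Deep interior was found in 15364 of 34461 protein-coding genes (44.6%) and amounted to 781 Mb, or 28.5% of the chromosomes. Of these genes, 7350 held a recurrent deep peak, which is 47.8% of all genes with deep interior. Each peak had on average 35.7 kb of deep interior, and the peaks themselves covered 1.80% of it. Genes of 100 kb or more held 14182 of the peaks (64.8%), and the median length of the host gene was 144 kb. Most deep interior lay in such genes too. Of 785 Mb summed over genes, 218 Mb lay in genes of 100 to 200 kb. Genes of 200 to 500 kb held 189 Mb and genes over 500 kb 85.3 Mb. Of the 21884 peaks, 119 lay in more than 1 gene and were counted for each.

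The rule chose these peaks by their presence in both lists, so their number is a description. In deep interior, 35638 replicate 1 peaks and 60346 replicate 2 peaks were called, which gives 61.4 ± 22.4 peaks per Mb (SD, n = 2). Of the replicate 1 peaks there, 61.4% recurred (Wilson 95% interval 60.9% to 61.9%, which covers counting error alone), beside 61.8% of all replicate 1 peaks. Of the replicate 2 peaks there, 36.0% overlapped a replicate 1 peak. Peaks without a counterpart numbered 13754 in replicate 1 and 38631 in replicate 2.

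Peaks lay close to the limit of 10 kb on both sides of it. The closest peaks inside the limit were 10004 bp from a gene end in ppp2r5a.S, 10005 bp in phf20.S and 10007 bp in LOC108719032. The closest ones outside were at 10000 bp in dag1.L and at 9998 bp in both hif1an.S and ube2m.L. Overlap with replicate 2 was rarely marginal. A median of 492 bp was shared, and 104 of the 21884 peaks shared under 50 bp.

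Recurrent deep peaks were sparser than recurrent peaks in intergenic sequence and denser than those near the ends of genes. Their density was 28.0 per Mb of deep interior. It was 33.2 per Mb in intergenic sequence over 10 kb from gene ends, 31.8 per Mb in intergenic sequence closer to genes, and 22.5 per Mb inside genes within 10 kb of a gene end. In replicate 1 alone these densities were 45.6, 53.0, 50.9 and 37.9 peaks per Mb. In replicate 2 alone they were 77.3, 88.2, 88.3 and 66.7 peaks per Mb. The difference between replicates was larger than that between places, but deep interior lay between sequence near gene ends inside genes and both intergenic places in each replicate.

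The median width of peaks was 501 bp in all 4 places, which is about the 500 bp set in peak calling, so this median says little about the regions. Wide peaks were rarer in deep interior than in intergenic sequence over 10 kb from gene ends. By the share over 2 kb, they were commoner in deep interior than in both places near gene ends. Mean width was 643 bp both in deep interior and in intergenic sequence near gene ends, and 627 bp inside genes near gene ends. Recurrent deep peaks had a median width of 501 bp, also the commonest width, and 62.0% had exactly this width. This share was 58.2% for intergenic recurrent peaks over 10 kb from gene ends. It was 60.2% for intergenic ones closer to genes and 63.1% for those inside genes near gene ends. Peaks over 2 kb made up 0.896% of recurrent deep peaks and 1.73% of intergenic ones over 10 kb from gene ends. They made up 0.690% of intergenic ones closer to genes and 0.656% of those inside genes near gene ends. The replicate 2 peaks that recurrent deep peaks overlapped had a median width of 626 bp. In the listing of replicate 1, whose order was taken for one of strength by inference, the median recurrent deep peak stood 44.0% of the way down. This was 37.9% for intergenic recurrent peaks over 10 kb from gene ends and 41.0% in both places near gene ends.

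The first question was whether longer genes carry more peaks for their length. Density rose with each class of gene length, but by little. Genes of 20 to 50 kb had 25.3 recurrent deep peaks per Mb of deep interior, or 0.0253 per kb. This was 27.1 per Mb in genes of 50 to 100 kb, 27.7 in genes of 100 to 200 kb, 29.4 in genes of 200 to 500 kb and 31.1 in genes over 500 kb, or 0.0311 per kb. The longest class was thus 1.23 times as dense as the shortest. In replicate 1 alone the corresponding peaks per Mb were 42.7, 44.9, 45.0, 46.9 and 49.9, and in replicate 2 alone they were 72.8, 76.2, 76.9, 79.4 and 81.6. The order of the classes was the same in both, and the ratio of the longest to the shortest class was 1.17 in replicate 1 and 1.12 in replicate 2.

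**Figure D1:**
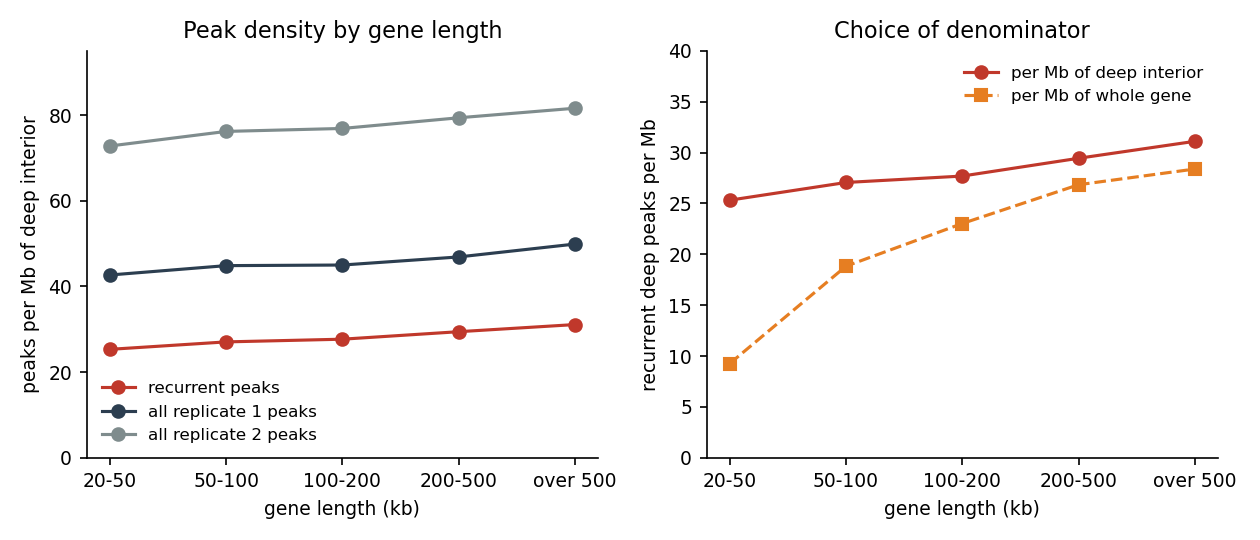
Left, peaks per Mb of deep interior (y axis) in 5 classes of gene length in kb (x axis) for recurrent peaks and for all peaks of each replicate. Right, recurrent deep peaks per Mb of deep interior and per Mb of whole gene. All 3 lines on the left rise from the shortest to the longest class, and on the right the line per whole gene climbs from 9.27 to 28.4 where that per deep interior climbs from 25.3 to 31.1.

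The choice of denominator decides how steep this relation looks. Per kb of whole gene, density was 0.00927 in genes of 20 to 50 kb and 0.0284 in genes over 500 kb, a ratio of 3.06. Deep interior makes up 36.6% of the shortest class and 91.2% of the longest, and the rule leaves out the peaks near gene ends while whole gene length counts that sequence. Gene by gene the relation was weak. Over 4357 genes with 50 kb or more of deep interior, Spearman's rho of gene length and recurrent deep peaks per Mb of deep interior was 0.08, a description over genes that share the same 2 libraries.

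The difference between long and short genes also varied between chromosomes. Genes of 200 kb or more were denser than genes under 100 kb on 15 of 18 chromosomes for recurrent deep peaks, with a ratio from 0.957 to 1.36. The same count was 13 of 18 chromosomes for all replicate 1 peaks and 15 of 18 for all replicate 2 peaks. Among genes over 20 Mb from a chromosome end, the shortest class had 23.7 and the longest 28.6 recurrent deep peaks per Mb. Among genes nearer to a chromosome end these values were 29.2 and 36.5 per Mb. The classes between had 33.6, 33.3 and 35.2 per Mb there, so density did not rise at each step. All replicate 2 peaks there stayed between 92.2 and 93.4 per Mb in the classes from 50 kb upward.

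Within a class, single genes varied widely, although most held few peaks each. In genes of 100 to 200 kb with 50 kb or more of deep interior, the 10th percentile was 8.33 and the 90th percentile 51.8 recurrent deep peaks per Mb. In genes over 500 kb these were 17.1 and 44.1 per Mb. Over 2025 genes of all lengths with 100 kb or more of deep interior, the 10th percentile was 9.64 recurrent deep peaks per Mb, the median 27.0 and the 90th percentile 48.8. Of these genes, 68 had over 60 peaks per Mb and 56 had none. Both libraries ranked these genes alike to a degree, with Spearman's rho of 0.67 between all replicate 1 and all replicate 2 peaks per Mb over the 2025 genes. At 1 extreme, 324 genes with 10 or more recurrent deep peaks held 24.1% of them, whereas 3240 genes held a single one.

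Position along the gene was examined next. The reference table gives no strand, so distances were taken from the nearer end and the start of a gene cannot be told from its end. In the 845 genes of 200 kb or more, recurrent peaks were rarest in the first kb inside a gene end, at 14.0 per Mb. Their density was 21.7 at 1 to 2 kb, 23.6 at 2 to 5 kb and 27.0 at 5 to 10 kb, all of which the rule leaves out. Within deep interior it was 27.2 per Mb at 10 to 20 kb from the nearest end, 29.0 at 20 to 50 kb, 29.8 at 50 to 100 kb, 30.5 at 100 to 200 kb and 32.0 beyond 200 kb. The rise was thus steep up to 10 kb and slight after that. Gene length and this distance are tied, since only long genes have sequence far from both ends. At 10 to 20 kb, density was 26.6 per Mb in all genes and 27.8 in genes of 500 kb or more. At 20 to 50 kb it was 27.6 and 29.8 per Mb. How far distance accounts for the rise with gene length was not tested.

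The 2 replicates shared the steep part and differed in the slight one. All replicate 1 peaks had 27.2 per Mb in the first kb, 44.4 at 10 to 20 kb and 51.4 beyond 200 kb. All replicate 2 peaks had 42.1, 76.0 and 82.2 per Mb at the same distances. Between 20 and 200 kb, replicate 2 stayed between 79.4 and 80.6 per Mb, without a steady rise. The deepest step beyond 200 kb was the densest in both.

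Relative position within the gene mattered little. In the same 845 genes, recurrent deep peaks had 28.6 per Mb in the outer 10% on either side of the gene, 29.2 at 10% to 20%, 30.1 at 20% to 30%, 30.4 at 30% to 40% and 31.0 at 40% to 50%, that is, around the middle. The middle was 1.06 times as dense as the step at 10% to 20%. The same ratio was 1.05 for all replicate 1 peaks and 1.00 for all replicate 2 peaks, so in these genes the slope was not seen in replicate 2 alone. On the lower-coordinate side of the gene midpoint there were 29.5 recurrent deep peaks per Mb, and on the other side 30.4. In the 124 genes of 500 kb or more, replicate 2 had 78.4, 80.8, 81.4, 83.9 and 83.0 peaks per Mb from the outer step to the middle. Recurrent deep peaks there had 28.7 per Mb in the outer step, 31.3 at 10% to 20% and 32.7 around the middle.

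**Figure D2:**
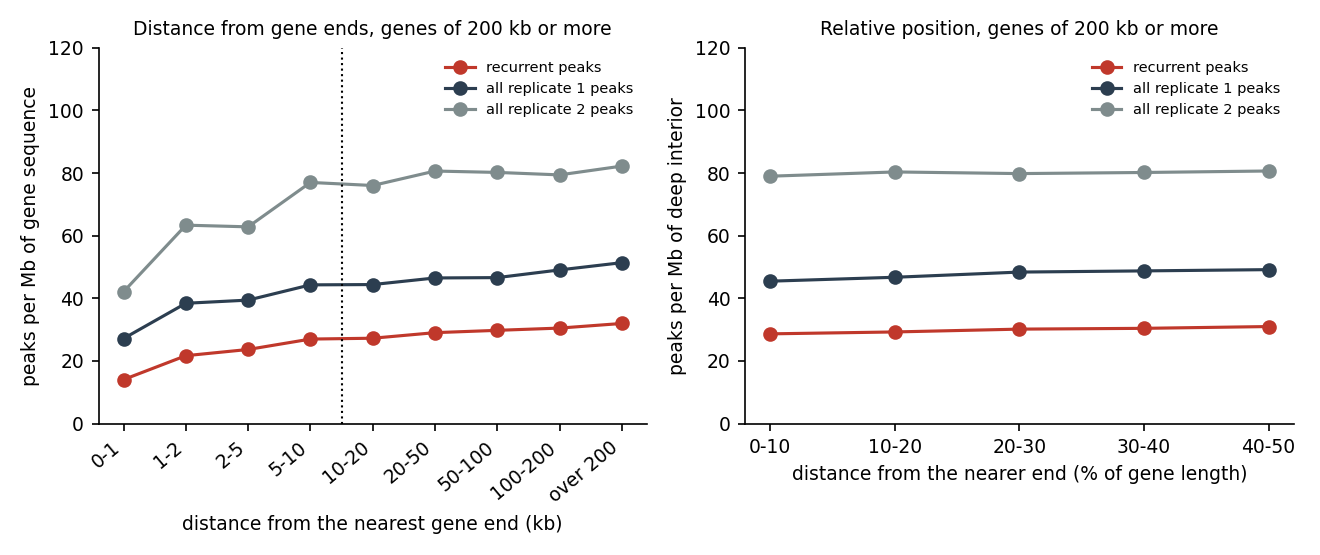
Left, peaks per Mb of gene sequence (y axis) by distance in kb from the nearest gene end (x axis) in genes of 200 kb or more, with the limit of the rule at 10 kb as a dotted line. Right, peaks per Mb of deep interior by distance from the nearer end as a percentage of gene length. Recurrent peaks climb from 14.0 to 27.0 per Mb before the dotted line and from 27.2 to 32.0 after it, while the lines on the right are nearly flat.

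The farthest recurrent deep peaks from any gene end lay in adgrl3.S, which encodes an adhesion G-protein-coupled receptor of the latrophilin family. These were at chr1S:79849898-79850398, 634 kb from the nearest end, and at chr1S:79865653-79866295 and chr1S:79868128-79868782, 627 and 624 kb away. All coordinates are of the Xenopus laevis v10.1 assembly.

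Peaks were spread over the interior of long genes. Peak calling set a minimum distance of 1000 bp, and the shortest gap between neighbours was 1.01 kb. Neighbouring recurrent deep peaks within an uninterrupted stretch of deep interior were a median of 15.0 kb apart, and 21.0% of 14421 such gaps were under 5 kb. A stretch with 1 peak gives no gap, and no gap can exceed its stretch, so these gaps run short. Their mean was 23.2 kb, beside 35.7 kb of deep interior per peak. In 754 windows of 100 kb inside 119 genes over 500 kb, the median window held 3 recurrent deep peaks, the 10th percentile 1 and the 90th percentile 6. The mean was 3.13 and the variance 3.76. There were 47 windows with none, and each of these had a peak in at least 1 library, with a median of 1 replicate 1 peak and 5 replicate 2 peaks.

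The richest windows held 10 recurrent deep peaks each. Among them were windows in LOC108712409 (chr3S:113078606-113178605), with 12 replicate 1 and 14 replicate 2 peaks, and in ctnna2.L (chr1L:15686254-15786253), with 10 and 13. Another was in foxp1.S (chr4S:120180724-120280723), with 13 and 18 peaks. The longest gap ran over 287 kb in ptprf.L, which encodes a receptor-type tyrosine phosphatase (4L, 83981575 to 84268178). It was not empty, as 5 replicate 1 and 7 replicate 2 peaks lay in it without a counterpart.

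The genes with the most recurrent deep peaks were among the longest of the genome. The rule for naming took the 20 genes with the most. A ranking by count favours long genes and, among these, dense ones, so densities above that of all such genes follow in part from the pick. Densities in the 20 genes ran from 31.6 per Mb in LOC108708507 to 60.8, beside 31.1 in all genes over 500 kb. Of the 20 genes, 14 have no gene name in RefSeq beyond a LOC number, and no function is given for them here. LOC108712409 on 3S (112268605 to 113373332, 1105 kb long) was first, with 66 recurrent deep peaks out of 90 replicate 1 and 121 replicate 2 peaks. This is 60.8 per Mb, more than in any other of the 20 genes. In intergenic sequence within 500 kb of it, over 10 kb from gene ends, recurrent peaks had 19.6 per Mb.

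LOC108717374 on 5S (3613740 to 4949352) was second, with 61 recurrent deep peaks out of 93 in replicate 1 and 134 in replicate 2. Its density was 47.6 per Mb, beside 50.5 per Mb in the intergenic sequence around it. Next was macrod2.S, which encodes a hydrolase that removes ADP-ribose from proteins, with 50 recurrent deep peaks out of 83 in replicate 1 and 169 in replicate 2. Despite its suffix, RefSeq places this gene on 5L (26678596 to 28170918). The count in replicate 2 was the highest of any gene, and the density of recurrent peaks was 34.7 per Mb.

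ctnna2.L encodes a neuronal alpha-catenin, which links cadherins to actin. It lies on 1L (15276253 to 16316751) and held 49 recurrent deep peaks, out of 65 in replicate 1 and 107 in replicate 2, so 75.4% of its replicate 1 peaks recurred. Its widest one, chr1L:15865772-15868455, had 2684 bp. The IgLON adhesion molecule gene lsamp.L (2L, 3917032 to 5151692) held 49 as well, but out of 86 in replicate 1 and 116 in replicate 2, with 57.0% recurring. The recurrent deep peak nearest to its lower-coordinate end was at chr2L:4011134-4011869.

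The other named genes among the 20 were adgrl3.S, lrmda.L and robo2.S. adgrl3.S (1S, 79216164 to 80492482) had 43 recurrent deep peaks, out of 72 in replicate 1 and 114 in replicate 2. lrmda.L (7L, 56861676 to 57852886), a leucine-rich repeat protein gene associated with pigment cells in mammals, had 38, out of 56 and 83. robo2.S (2S, 9970412 to 10624602), a receptor for Slit proteins in axon guidance, had 34, out of 47 and 85, at 53.6 per Mb. It was the shortest of the 20 genes, at 654 kb.

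**Figure D3:**
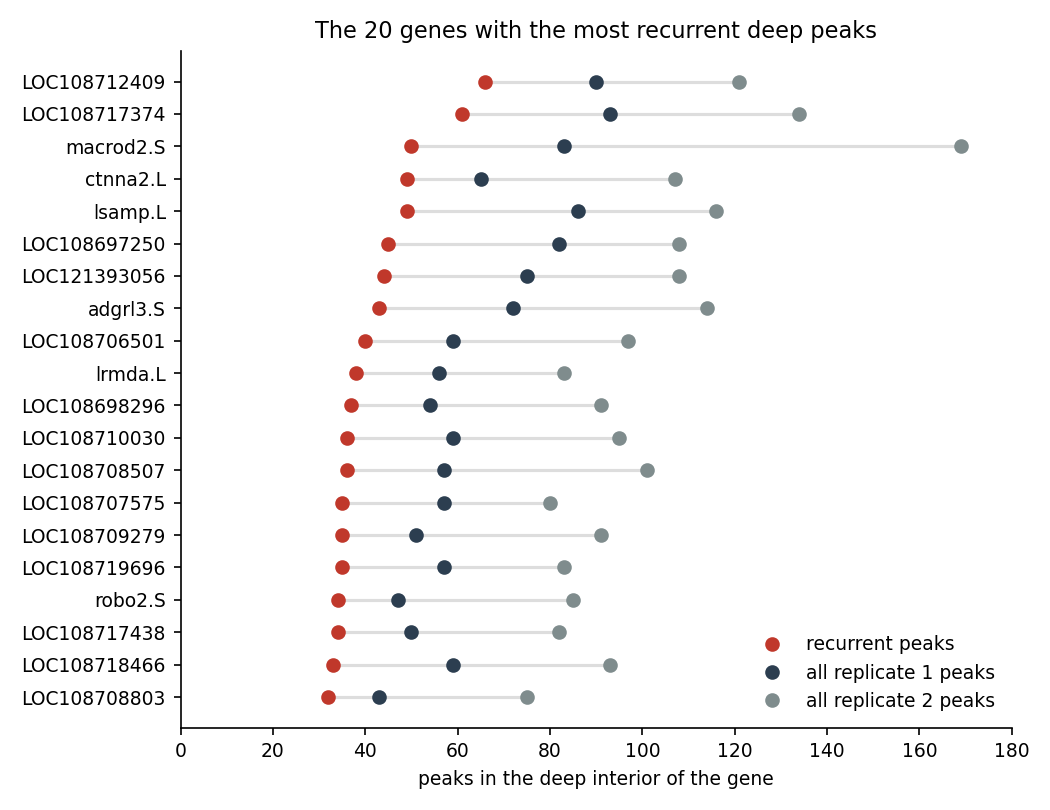
Peaks in the deep interior (x axis, number of peaks) of the 20 genes with the most recurrent deep peaks (y axis), as recurrent peaks and as all peaks of replicate 1 and replicate 2. Recurrent deep peaks range from 32 in LOC108708803 to 66 in LOC108712409, and macrod2.S has 169 replicate 2 peaks.

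The remaining 12 genes, all with LOC numbers, had from 32 to 45 recurrent deep peaks. LOC108697250 on 7S had 45 and LOC121393056 on 3L had 44. LOC121393056 is the longest protein-coding gene with deep interior, at 1743 kb, but other genes inside it left 1154 kb of deep interior. The map of peak positions includes 5 of these 12 genes, and in each the recurrent deep peaks lay at many places along the gene.

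**Figure D4:**
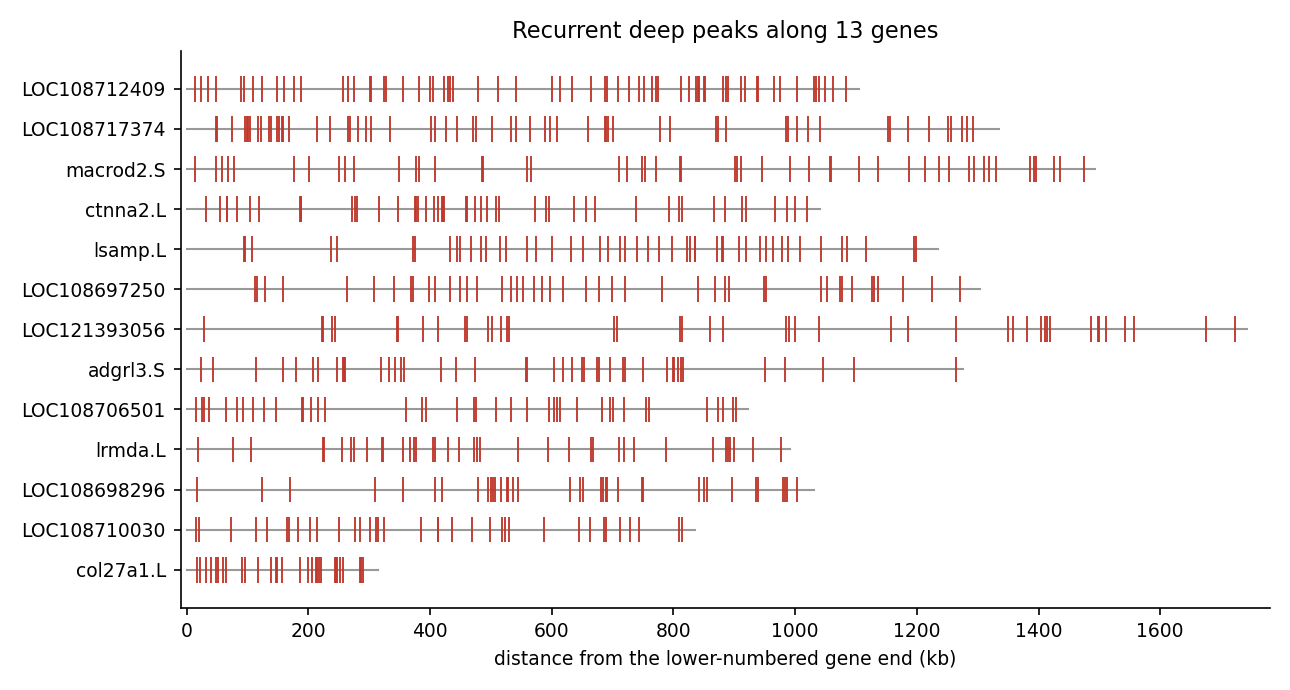
Position of each recurrent deep peak (red tick) along 12 of the genes with the most peaks and along col27a1.L, as distance in kb from the gene end with the lower coordinate (x axis). Grey lines are the genes. LOC108712409 carries 66 ticks over 1105 kb and col27a1.L 30 ticks over 315 kb.

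Ranked by density instead, shorter genes led. Densities of shorter genes rest on fewer peaks and spread more widely, as seen above between classes of length. The median count of recurrent deep peaks was 3 in genes of 100 to 200 kb and 19 in genes over 500 kb. Among genes with 100 kb or more of deep interior and 3 or more recurrent deep peaks, the 10 densest had 78.0 to 102 peaks per Mb. The first was col27a1.L, which encodes a fibrillar collagen chain of cartilage. It lies on 8L (15187313 to 15501979) and had 30 recurrent deep peaks out of 36 in replicate 1 and 52 in replicate 2. Recurrent deep peaks covered 7.78% of its deep interior. The intergenic sequence within 500 kb of it had 68.8 recurrent peaks per Mb.

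The homeolog of that gene did not share this level, although lower values in homeologs can follow from picking genes by their density. col27a1.S had 5 recurrent deep peaks, out of 5 in replicate 1 and 12 in replicate 2, or 35.1 per Mb. Second in density was glp1r.S, the receptor gene for glucagon-like peptide 1, on 5S (7299800 to 7427512). It had 10 recurrent deep peaks, out of 12 in replicate 1 and 14 in replicate 2, or 92.8 per Mb, against 3 or 23.8 per Mb in glp1r.L. slc4a4.S, a sodium bicarbonate cotransporter gene on 1S (70481573 to 70609442), was the one gene of the 10 in which every replicate 1 peak recurred, with 9 of 9, and it had 10 replicate 2 peaks. Its homeolog slc4a4.L was dense too, with 8 recurrent deep peaks or 65.3 per Mb.

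The other named genes of this group were kif26a.S, sema4b.L and lrrn3.S. The kinesin family gene kif26a.S had 80.7 recurrent deep peaks per Mb, with 9 out of 15 in replicate 1 and 17 in replicate 2. The semaphorin gene sema4b.L had 78.4 per Mb, with 10 out of 15 and 16. The leucine-rich repeat neuronal gene lrrn3.S had 78.0 per Mb, with 9 out of 12 and 14. The sema4b.S homeolog had 29.7 per Mb.

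One of the dense genes holds an array of transfer RNA genes, which encode the adaptors of translation. LOC121393935 on 1L (4701705 to 4965052) had 22 recurrent deep peaks, or 90.4 per Mb, out of 28 in replicate 1 and 31 in replicate 2. RefSeq places 145 tRNA genes of 9 kinds in its deep interior, between 4738979 and 4852295, mostly for arginine, valine, glutamate and histidine. Of its 22 recurrent deep peaks, 16 overlapped a tRNA gene. The tRNA genes lie close together, so a peak in the array can overlap one by position alone. How many would do so was not tested. Recurrent deep peaks covered 24 of the 145 tRNA genes, replicate 1 peaks 27 and replicate 2 peaks 98. The widest recurrent deep peak there, chr1L:4825045-4827028, had 1984 bp, and its replicate 2 counterpart, chr1L:4820308-4827148, had 6841 bp. Deep interiors held 223 tRNA genes in all, these 145 included. Among the others, 1 overlapped a recurrent deep peak, in b4galnt1.L. Recurrent deep peaks covered 1.80% of all deep interior, so a count this low does not set those tRNA genes apart from it.

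Some long genes had no recurrent deep peak. Among those with the longest deep interior were kcnmb2.S, LOC100301959, nr3c2.S and LOC108717837, with 165 to 187 kb. kcnmb2.S, a regulatory subunit gene of calcium-activated potassium channels on 5S (95757791 to 95964719), had 1 replicate 1 peak and 5 replicate 2 peaks. nr3c2.S, the mineralocorticoid receptor gene on 1S (45957392 to 46151990), had 2 and 8, and its homeolog nr3c2.L had 2 recurrent deep peaks. LOC100301959 had 4 and 9, and LOC108717837 had 4 and 14. None of these genes was thus without peaks, and in each the peaks of both libraries lay apart.

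The widest recurrent deep peaks were seen in other genes. The widest was chr1S:165427923-165433364 in LOC108707234, with 5442 bp in replicate 1 and 6369 bp in replicate 2. Next was chr7L:118107988-118113217 in tead4.L, a transcription factor gene of the Hippo pathway, with 5230 bp and 3879 bp. In ntm.S, an IgLON adhesion gene, a peak of 4139 bp at chr7S:56895793-56899931 met a replicate 2 peak of 501 bp. In all, 28 recurrent deep peaks were 3 kb wide or more.

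Gene families known for long genes were then compared with all genes. Each family was a list of symbols, and only genes with a matching RefSeq symbol entered. In synaptic and neuronal adhesion 29 of 53 symbols matched, and in axon guidance 39 of 47. Family members without a match, such as any with only a LOC number, are missing from the values below. Of genes with 50 kb or more of deep interior, 88.8% held a recurrent deep peak, with a median of 26.1 per Mb. Among synaptic and neuronal adhesion genes with 50 kb or more of deep interior, 37 of 38 held a recurrent deep peak. Their median was 28.3 per Mb, at a median length of 198 kb. The longest were adgrl3.S, lsamp.L and cadm2.L, an adhesion gene on 2L with 26 recurrent deep peaks out of 52 in replicate 1 and 66 in replicate 2. Of the 38 genes, 21 were above the median of all genes.

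Axon guidance genes had a median of 24.3 per Mb, and 43 of 49 held a recurrent deep peak. Pooled over the deep interior of the list they had 29.0 per Mb, beside 28.0 for all genes, so the median and the pooled density lay on different sides of those of all genes. After robo2.S, the longest were the netrin receptor genes dcc.S, with 14 recurrent deep peaks out of 20 and 42, and unc5d.S, with 11 out of 14 and 24. Receptor-type protein tyrosine phosphatases had the lowest median of the 8 families, at 18.1 per Mb, with 4 of 16 genes above the median of all genes and 13 of 16 holding a recurrent deep peak. In ptprd.S there were 26 recurrent deep peaks out of 39 in replicate 1 and 65 in replicate 2, and in its homeolog ptprd.L 15 out of 28 and 50. ptprf.L, at 635 kb, had 9 out of 20 and 28, or 14.6 per Mb.

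Glutamate receptor and calcium channel genes had a median of 25.5 per Mb, with 41 of 44 holding a recurrent deep peak. The delta receptor gene grid1.S had 14 recurrent deep peaks out of 24 in replicate 1 and 29 in replicate 2, and grid1.L 14 out of 25 and 33, so these homeologs had equal counts of recurrent deep peaks. Genes of giant cytoskeletal and sarcomeric proteins had a median of 22.8 per Mb, with 26 of 28 holding one. utrn.S, which encodes utrophin of the dystrophin family, had 15 out of 20 and 40, against 7 out of 11 and 24 in utrn.L. dst.L, which encodes the cytolinker dystonin, had 8 out of 12 and 18.

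For very long genes known from mammalian common fragile sites, 20 of 32 listed symbols matched. All 24 matched genes with 50 kb or more of deep interior held a recurrent deep peak. Their median length was 426 kb, and 99.2% of all genes of 200 to 500 kb and 100% of those over 500 kb held one. The median density was 25.9 per Mb and the pooled density of the list 30.4 per Mb. These again lay on different sides of those of all genes. In all genes of 200 to 500 kb with 50 kb or more of deep interior, the median density was 28.4 per Mb. Long genes of developmental transcription factors and RNA regulators had a median of 23.3 per Mb, and 69 of 75 held one. Among its longest genes, the forkhead gene foxp1.S had 31 recurrent deep peaks out of 50 in replicate 1 and 76 in replicate 2, or 52.7 per Mb, against 25 out of 45 and 69, or 42.2 per Mb, in foxp1.L. celf4.L, a longer RNA-binding protein gene, had 11 out of 22 and 38, or 16.8 per Mb. Extracellular matrix and growth factor signalling genes had a median of 23.2 per Mb, with 59 of 68 holding one. Here gpc6.S, a glypican gene, had 15.7 per Mb, the receptor kinase gene erbb4.L 21.1 per Mb and fras1.S, a basement membrane protein gene, 35.6 per Mb. The medians of the 8 families lay from 18.1 to 28.3 per Mb.

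Among families not in these lists, potassium channel genes had a median of 27.0 recurrent deep peaks per Mb and a pooled density of 28.4. Collagen genes had a median of 16.0 and a pooled density of 21.8 per Mb, with 30 of their 86 recurrent deep peaks in col27a1.L. Cadherin and protocadherin genes had a median of 27.7 and a pooled density of 30.2 per Mb.

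Recurrent deep peaks were compared between subgenomes last. Xenopus laevis is allotetraploid, with each S chromosome paired to a homeologous L chromosome. S chromosomes carried 10069 recurrent deep peaks in 340 Mb of deep interior, or 29.6 per Mb, and L chromosomes 11815 in 441 Mb, or 26.8 per Mb. In 9 of 9 pairs the density was higher on S, by 3.20 ± 2.64 per Mb (SD over pairs), and this held in 9 of 9 pairs with all peaks of either replicate. The difference was 9.45 per Mb in pair 8, and the smallest was 0.742 in pair 2. The density of S over L was 1.11 for recurrent deep peaks and 1.11 and 1.10 in replicates 1 and 2. Genes over 500 kb had 33.4 recurrent deep peaks per Mb on S and 29.4 on L. In both subgenomes the density of recurrent deep peaks increased with each class of gene length. All replicate 1 peaks on L fell from 42.8 per Mb in genes of 50 to 100 kb to 42.2 in genes of 100 to 200 kb.

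**Figure D5:**
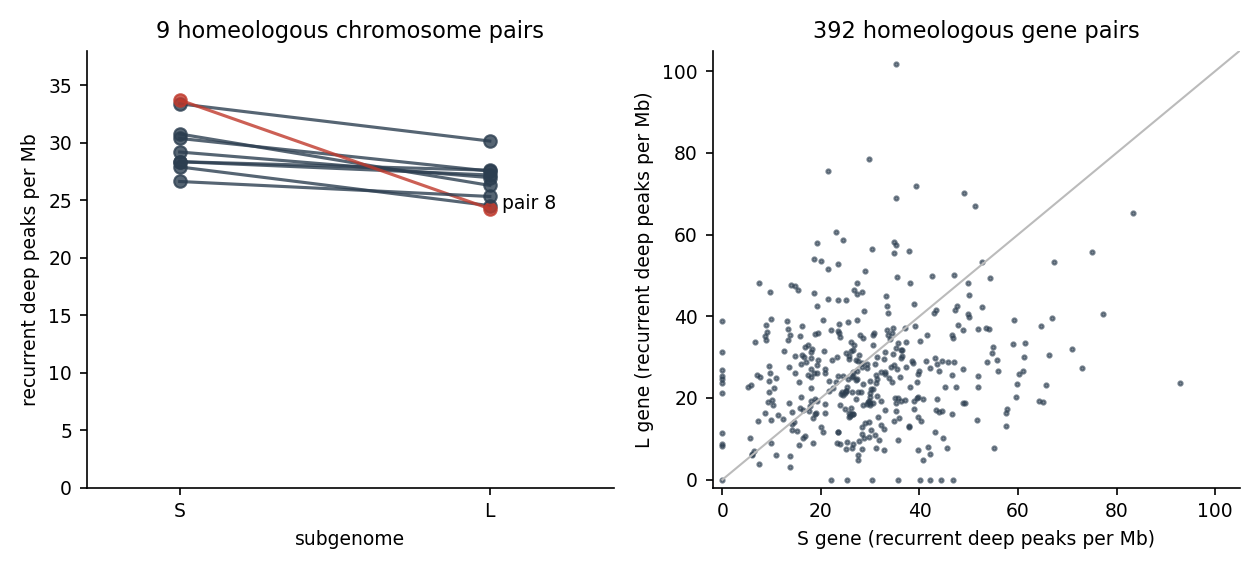
Left, recurrent deep peaks per Mb of deep interior (y axis) on S and L chromosomes, with 1 line for each of 9 homeologous pairs and pair 8 in red. Right, the same density in the S gene (x axis) and the L gene (y axis) of 392 homeologous pairs with 100 kb or more of deep interior in each. All 9 lines fall from S to L, and the points on the right scatter widely about the diagonal.

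Homeologous genes were alike in length, while their densities of peaks went together only weakly. Among 392 pairs with 100 kb or more of deep interior in each, Spearman's rho was 0.83 for the length of deep interior and 0.14 for recurrent deep peaks per Mb, a description over genes from the same libraries. The S genes of these pairs held 2254 recurrent deep peaks and the L genes 2047, so counts per gene were small. Counting error lowers rho for density but not for length, and how far it does so here was not tested. The S gene was denser in 231 pairs and the L gene in 160. Summed over the pairs, S genes had 30.3 and L genes 26.9 recurrent deep peaks per Mb.

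The place of a gene on its chromosome went along with its density. Among the 2025 genes with 100 kb or more of deep interior, the 210 genes within 10 Mb of a chromosome end had 33.6 recurrent deep peaks per Mb. The 274 genes at 10 to 20 Mb had 36.3 and the 1541 genes farther away 27.1. In replicate 1 alone these were 54.2, 58.3 and 43.7 peaks per Mb, and in replicate 2 alone 88.5, 97.2 and 74.0. Spearman's rho with the recurrent peaks in intergenic sequence within 500 kb was 0.18 over 1934 genes. How far this place accounts for the differences between single genes, or between S and L chromosomes, was not tested.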

How the data were processed

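The data were peak lists of 2 MBD capture libraries. Per the file headers and the study's methods, the authors aligned paired-end reads to Xenopus laevis v10.1 with bowtie and called broad regions with HOMER 4.11 (histone style) for each replicate against the Input of that replicate, at 500 bp, 4-fold over Input and at least 12 tags in replicate 1 and 15 in replicate 2. The deposited rows give the start and end of a peak and a score of 1 for all peaks, so no strength per peak was available and the list order was read as a rank by inference. A region called in the deeper replicate 2 was held to more tags.

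Gene positions were read from RefSeq (same assembly), in a table without strand, exons or sequence. No sequence is shown, and CpG content, introns and mappability were not analysed here. Deep interior was all gene sequence over 10 kb from every protein-coding gene end. Densities count midpoints per Mb of it, in gene counts once for each gene, and bases were summed over genes. Matches to gene families used RefSeq symbols with the suffix removed, and listed symbols without a match were left out.

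No test was run, since the rule used the peaks and the lists form 1 group of 2 biological replicates. Genes named were the 20 with the most recurrent deep peaks, the 10 densest with 100 kb or more of deep interior and at least 3 peaks, the 5 with the longest deep interior and no such peak, and the 3 longest of each family; some of these are not reported here, and other genes were named after their values were seen. The peaks and families were chosen with earlier results of these data known. Functions were tested on simulated peak lists. Splits by chromosome, subgenome and distance to a chromosome end were added after the data were seen. Software was pandas 2.3.3, numpy 2.4.6 and scipy 1.17.1 under Python 3.11.15, with plots from matplotlib 3.10.9.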

Additional observations from a re-analysis of the deposited data

How the results depend on the processing

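The number of recurrent deep peaks (21884) stayed within 1.5 times under other overlaps, other distances from gene ends and the replicate 2 list, but was 9908 in the first part of each list (49.4% and 49.2% of its rows). In those parts the densest step around the middle of genes was 1.02 times the step at 10% to 20%, 31.5% of genes held a peak, the most peaks in a gene were 28 (in LOC121393056, with 15 in LOC108712409) and the median place in the list was 20.6%. The ratio of the longest to the shortest genes was 1.27 with a reciprocal overlap and 3.06 per whole gene. S over L was 1.10 with reciprocal overlap, 1.11 with 200 bp in common and 1.12 in the first parts, all close to 1.11. The median place in the list was 39.4% for the replicate 2 list and 56.5% at the commonest width. Without replicate 1 or 2, no recurrence was asked, and values ranged from 35638 to 60346 peaks, 1.12 to 1.17 for gene length, 1.00 to 1.05 for the middle of genes, 59.1% to 70.0% of genes with a peak, 93 to 169 for the most peaks in a gene, and 50.5% to 51.7% for the place in the list. Of the 20 genes with the most peaks, 10 remained among the first 20 in the first parts of the lists, and 17 to 20 under each other alternative. LOC108712409 did not lead either list alone: LOC108717374 had the most replicate 1 peaks (93, against 90) and macrod2.S the most replicate 2 peaks (169, against 121). The cause was not tested. No paired analysis was possible because only MBD capture had values here and Input, the group with matching replicate numbers, was not analysed, so no replicate block was fitted. Replicate 1 had fewer tags and a smaller share of them in peaks (22.16% against 42.27%). This limits statements on recurrence and on sequence called in replicate 2 alone.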

Other observations

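Other annotated genes also lie in the deep interior of protein-coding genes. Of 383 long non-coding RNA genes there, with a median length of 5814 bp, 84 overlapped a recurrent deep peak, 120 a replicate 1 peak and 160 a replicate 2 peak. In all, 146 recurrent deep peaks overlapped these genes, or 26.0 per Mb of their sequence, beside 28.0 midpoints per Mb of all deep interior. The first value counts any overlap, which takes in more peaks than midpoints do, so the 2 values are not on the same measure. Of 65 pseudogenes there, 6 overlapped a recurrent deep peak, among them LOC121394535 inside nebl.L with 2. Of 41 small nuclear RNA genes, 0 overlapped a recurrent deep peak, 2 a replicate 1 peak and 0 a replicate 2 peak. Of 34 small nucleolar RNA genes, 1 overlapped a recurrent deep peak, inside ipo7.L. Their median lengths were 126 and 112 bp, and recurrent deep peaks covered 1.80% of all deep interior. Counts this low thus do not set these small RNA genes apart from deep interior. How many pseudogenes or small RNA genes would overlap a peak by position alone was not tested.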
